A study of Mus musculus with 12 samples.

Results

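Transcripts of 10 genes that carry, relay or limit the signals of GM-CSF and IL-6 were followed in cultures of mouse bone marrow cells. The set held the receptor chains *Csf2ra*, *Csf2rb*, *Csf2rb2*, *Csf1r*, *Il6ra* and *Il6st*, the transcription factors *Stat3* and *Stat5a*, and the feedback genes *Socs3* and *Cish*. They were taken by symbol from the table of counts, which listed 54532 genes, and all 10 were found and passed the filter on low counts with 14894 genes in all. Bone marrow of wild-type C57BL/6 mice was cultured for 5 days in medium with GM-CSF and IL-6, so the ligands of both pathways were added to every culture, controls included. The 3 groups differed in the addition of vehicle (0.1% DMSO), 10 µM indole-3-propionic acid (IPA) or 50 µM IPA, and each held 4 RNA-seq libraries. IPA is a product that gut bacteria make from tryptophan. Each library is a mixed myeloid culture without a sort, and the study describes lower cell viability at 50 µM. The labels do not say whether the libraries of a group came from separate mice or separate cultures, so the p-values measure the spread between these libraries, which may be technical.

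GM-CSF binds an alpha chain encoded by *Csf2ra*, and signalling needs the common beta chain encoded by *Csf2rb*, which IL-3 and IL-5 receptors share. Mice carry a near copy, *Csf2rb2*, whose product serves IL-3 only. IL-6 binds the chain encoded by *Il6ra* and then the signalling chain gp130, encoded by *Il6st*, which the whole IL-6 family uses. JAK kinases on these chains activate STAT proteins, mainly STAT5 downstream of GM-CSF and mainly STAT3 downstream of IL-6. STAT5 induces *Cish* and STAT3 induces *Socs3*, and their products dampen the receptors in turn, SOCS3 by binding gp130. *Csf1r* encodes the receptor of M-CSF and marks monocytes and macrophages.

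The members lie on 7 mouse chromosomes, given here on GRCm38. *Csf2rb* (ENSMUSG00000071713, chr15:78325752-78353847, plus strand) and *Csf2rb2* (ENSMUSG00000071714, chr15:78282507-78305721, minus strand) are neighbours 20030 bases apart. *Stat5a* (ENSMUSG00000004043, chr11:100859351-100885169, plus strand) and *Stat3* (ENSMUSG00000004040, chr11:100885098-100939540, minus strand) meet at their ends and share 72 exon bases. *Socs3* (ENSMUSG00000053113) is also on this chromosome, at chr11:117966079-117970047 on the minus strand. *Csf2ra* (ENSMUSG00000059326) is at chr19:61223957-61228429, *Csf1r* (ENSMUSG00000024621) at chr18:61100598-61132149, *Il6ra* (ENSMUSG00000027947) at chr3:89864059-89913196, *Il6st* (ENSMUSG00000021756) at chr13:112464070-112510086 and *Cish* (ENSMUSG00000032578) at chr9:107296026-107302784.

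The count of a gene can hold reads of a near copy or of an overlapping gene, since the sources do not state whether strand was used. Of the distinct 50-base stretches in *Csf2rb2* transcripts, 18.4% also occur in *Csf2rb*, and 6.82% of the 100-base stretches do. The beta chain genes therefore stay uncertain where reads could be split, as does *Stat5a*, which shares 8.21% of its 50-base stretches with *Stat5b*. *Csf1r* overlaps *Hmgxb3* on the opposite strand by 873 exon bases, and *Hmgxb3* had 30.3 to 41.6 CPM (reads scaled by library size) over the 12 libraries. The partners on the other strand of *Cish* reached at most 1.02 CPM, and that of *Il6ra* at most 0.226 CPM.

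STAT dimers are known to bind TTCNNNGAA, which reads the same on both strands. The 250 bases before each RefSeq start were searched for it. The search covered promoter entries of RefSeq (build GRCm38.p6) for 8 of the 10 members, with 9 entries, and 2 members held 1 match each. *Csf1r* and *Csf2rb* were not searched. All promoters gave a match in 7.02% of 32851. The stricter TTCCNGGAA, which is part of the first motif, was in none of the 9 entries and in 0.913% of all promoters. Both matches are shown in capitals, because no other window searched held these letters. The first is the whole window before *Csf2rb2*, chr15:78305722-78305971 on the minus strand, whose match is centred 11 bases before the start.
Csf2rb2: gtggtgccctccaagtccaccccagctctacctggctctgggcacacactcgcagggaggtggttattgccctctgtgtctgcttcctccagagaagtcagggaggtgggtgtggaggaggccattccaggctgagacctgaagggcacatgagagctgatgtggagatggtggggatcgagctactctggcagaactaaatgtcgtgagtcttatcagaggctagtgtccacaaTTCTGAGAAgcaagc
The second is the outer 165 bases of the *Socs3* window, since the rest of it holds an exon of another transcript, chr11:117969452-117969616 on the minus strand, whose match is centred 150 bases before the RefSeq start.
Socs3: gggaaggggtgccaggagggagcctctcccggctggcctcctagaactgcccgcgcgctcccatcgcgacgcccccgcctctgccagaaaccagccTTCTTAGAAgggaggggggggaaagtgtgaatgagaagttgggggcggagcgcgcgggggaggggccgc
The *Socs3* stretch lies in an intron of a longer transcript of the gene in the GENCODE annotation. The match is a description of the letters and not of a bound site. In the windows of *Csf2ra*, *Il6ra*, *Il6st*, *Stat3*, *Stat5a* and *Cish* these letters were not found. The windows of *Cish* (chr9:107296409-107296658) and *Stat5a* (chr11:100859406-100859655 and chr11:100860234-100860483) lie inside the gene spans given above. The bases before those spans were thus not searched for these genes.

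The libraries held between 20451312 and 28038612 counted reads. No library was a copy of another of its group, and pairs between groups were not compared. Levels below are CPM, scaled by edgeR's TMM factors over the 12 libraries, and the factors lay between 0.977 and 1.02. The libraries differed in how counts followed gene length within each group. The slope of a library's deviation in log2 CPM on log2 exon length ran from -0.0662 to 0.0582, with the lowest values in vehicle replicate 4 (-0.0662), 10 µM replicate 1 (-0.0578) and 50 µM replicate 3 (-0.0619). Vehicle replicate 4 was the lowest of its group for 7 of the 10 members, 10 µM replicate 1 for 7 and 50 µM replicate 3 for 6. The part of the slope in these levels was not tested, and fits of fold changes with the slope as a covariate are given below.

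Per kilobase of exon, the beta chain *Csf2rb* had the highest level of the 10 genes in every group. With vehicle it stood at 405 ± 41.6 CPM per kilobase (SD, n = 4), above *Csf2rb2* (227 ± 22.02) and *Csf1r* (163 ± 5.24). The alpha chain *Csf2ra* (71.8 ± 6.75) and *Socs3* (56.5 ± 2.25) followed. None of these 5 neighbours in the order overlapped over the vehicle libraries. *Stat3* (27.2 ± 2.14) and *Cish* (24.9 ± 0.816) overlapped. Among the lowest genes, *Il6st* (9.88 ± 1.36) overlapped both *Il6ra* (10.6 ± 0.925) and *Stat5a* (8.43 ± 0.884), which did not overlap each other. At 10 µM the means of *Il6st* (10.6) and *Il6ra* (10.3) changed places within overlapping ranges. At 50 µM *Il6ra* was last, at 6.41 ± 0.379 CPM per kilobase, below the range of *Il6st* (8.98 ± 0.888) and of *Stat5a* (9.10 ± 0.101), and *Cish* (28.1 ± 0.619) stood above *Stat3* (21.4 ± 1.98). Counted per kilobase of the longest transcript instead, *Stat5a* (15.2 with vehicle) came before *Il6st* (12.6) and *Il6ra* (10.6), and *Csf2rb2* (227) and *Csf1r* (200) overlapped. By mean CPM over the 12 libraries, *Csf2rb* ranked at place 16 of the 14894 genes and *Stat5a*, the lowest member, at place 3802.

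**Figure D1:**
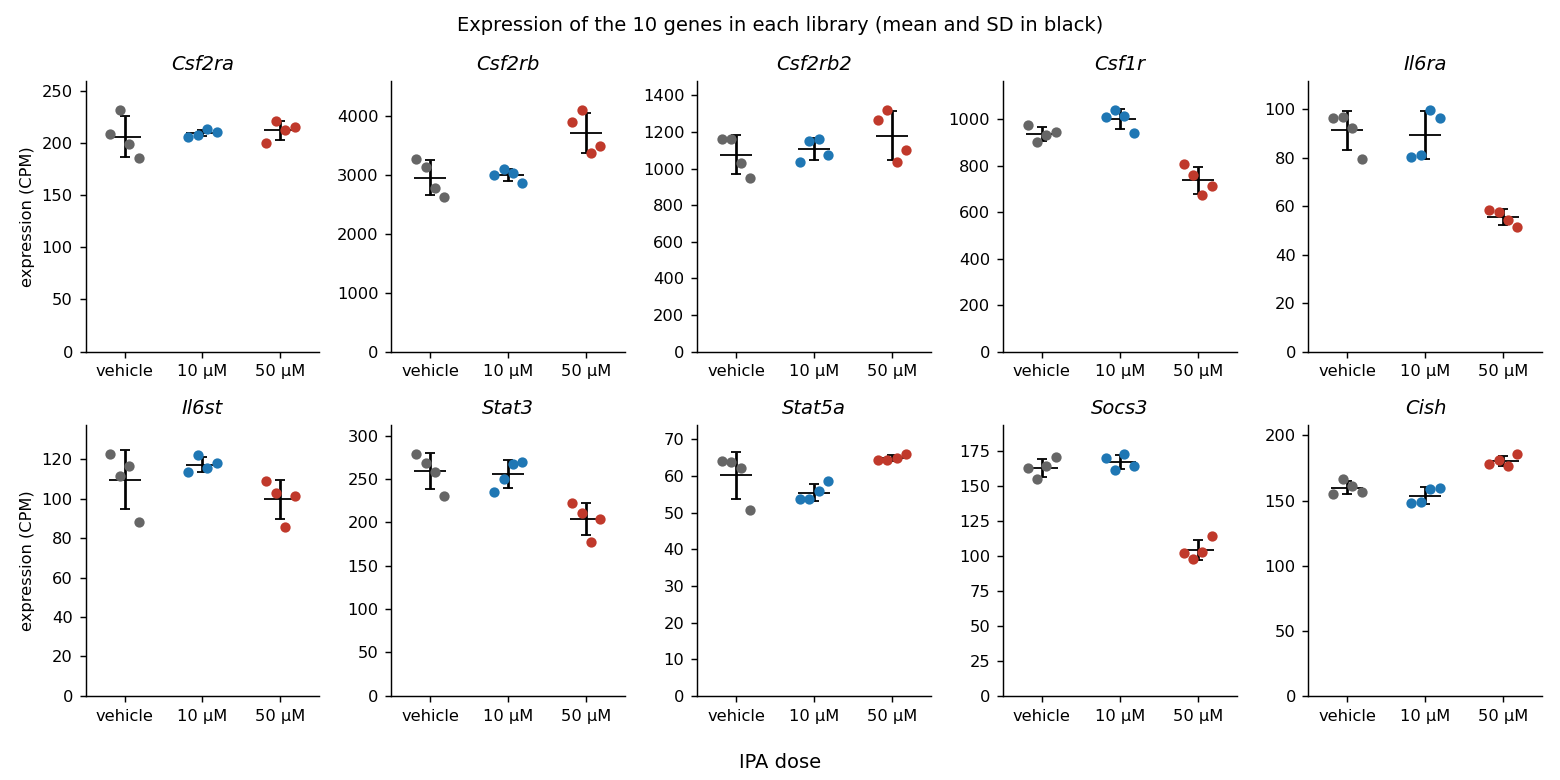
Level of each of the 10 genes in each of the 12 libraries, in CPM on the vertical axis, with 1 panel and its own scale for each gene and the 3 groups on the horizontal axis; points are libraries and bars the mean and SD of 4. At 50 µM all 4 libraries of *Il6ra* (51.3 to 58.5 CPM), *Socs3* (97.8 to 114 CPM), *Stat3* and *Csf1r* lie below the vehicle libraries and those of *Csf2rb* above, while the 10 µM and vehicle points overlap in every panel.

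No member passed the test at 10 µM against vehicle. By edgeR's quasi-likelihood test with Benjamini-Hochberg adjustment over all genes, 0 of the 10 members passed an adjusted p of 0.05, where 0.41% of all genes tested did (61 of 14894). The smallest adjusted p among members was 0.721, for *Csf1r*. The unadjusted p was under 0.05 for 0 members, against 8.78% of all genes, and DESeq2's Wald test also called 0. The groups overlapped for all 10, where 6.13% of all genes did not overlap. The median absolute log2 fold change was 0.04 over the members and 0.11 over all genes. Every 95% interval of a member's log2 fold change lay between -0.30 and 0.30, so that changes beyond these bounds lay outside the intervals.

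At 50 µM the members went in both directions. Against vehicle, 5 of the 10 passed the test, 1 higher (*Csf2rb*) and 4 lower (*Csf1r*, *Il6ra*, *Stat3* and *Socs3*), where 13.5% of all genes passed (7% higher and 6.5% lower). The groups did not overlap for 7 members, the other two being *Cish* and *Stat5a*, so that 3 lay higher and 4 lower, where 20% of all genes did not overlap (9.45% higher and 10.5% lower). Against 10 µM, 8 members passed, 3 higher (*Csf2rb*, *Cish* and *Stat5a*) and 5 lower (*Csf1r*, *Il6ra*, *Il6st*, *Stat3* and *Socs3*), where 15.4% of all genes passed (7.52% higher and 7.85% lower). These 8 members also did not overlap between 50 µM and 10 µM, where 20.3% of all genes did not (9.43% higher and 10.9% lower). The median absolute log2 fold change of the members was 0.26 against vehicle and 0.27 against 10 µM, and over all genes it was 0.19 and 0.18. These comparisons share the 50 µM libraries. In bulk RNA, a change in the share of cells that express a gene and a change in RNA per cell cannot be told apart.

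**Figure D2:**
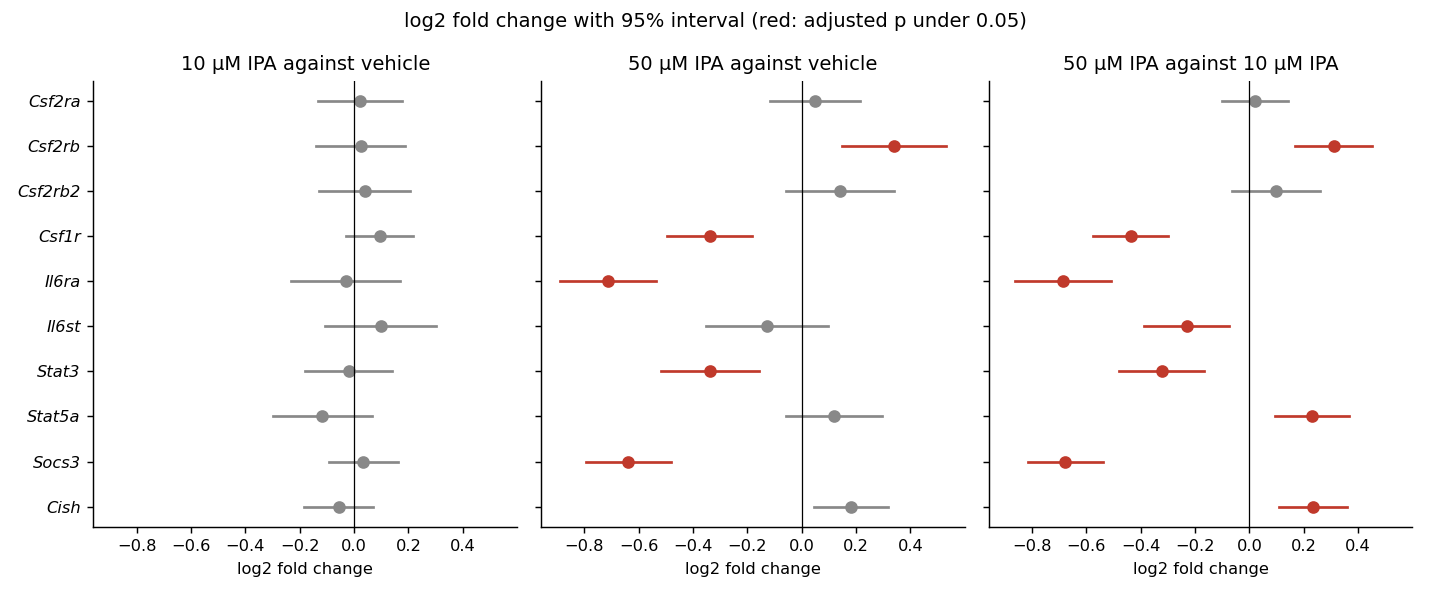
Log2 fold change of each gene with its 95% interval from edgeR, in 1 panel each for 10 µM and 50 µM IPA against vehicle and 50 µM against 10 µM; red points passed an adjusted p of 0.05. At 10 µM every interval includes 0, and at 50 µM against vehicle *Il6ra* (-0.71) and *Socs3* (-0.64) lie farthest below 0 and *Csf2rb* (0.34) farthest above.

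Among the receptor chains of GM-CSF, the beta chain was higher at 50 µM, and the alpha chain did not pass the test. *Csf2ra* had 209, 231, 198 and 186 CPM in vehicle replicates 1 to 4, 206, 208, 213 and 211 CPM at 10 µM, and 200, 221, 212 and 215 CPM at 50 µM. The groups overlapped, and the log2 fold change at 50 µM against vehicle was 0.05 (95% interval -0.12 to 0.21, adjusted p = 0.725). *Csf2rb* had 3274, 3127, 2779 and 2620 CPM with vehicle, 2995, 3104, 3037 and 2864 CPM at 10 µM, and 3890, 4096, 3362 and 3491 CPM at 50 µM. All 4 libraries at 50 µM lay above all others. The log2 fold change was 0.34 (SE 0.09, adjusted p = 0.0222) against vehicle, a fitted rise of 26.5%, and 0.31 (SE 0.07, adjusted p = 0.00486) against 10 µM. The call against vehicle was lost in 3 of 8 leave-one-out fits, without vehicle replicate 3 (adjusted p = 0.0832), 50 µM replicate 1 (0.0672) or 50 µM replicate 2 (0.0908), and the call against 10 µM in none.

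*Csf2rb2*, the copy that serves IL-3, had 1162, 1164, 1031 and 951 CPM with vehicle, 1036, 1150, 1165 and 1076 CPM at 10 µM, and 1265, 1321, 1035 and 1102 CPM at 50 µM. Its groups overlapped, and the log2 fold change at 50 µM against vehicle was 0.14 (SE 0.09, 95% interval -0.06 to 0.34, adjusted p = 0.357). It passed (0.19, adjusted p = 0.0269) when each library's length slope entered the fit, an alternative picked with the values known. *Csf1r*, the M-CSF receptor, had 974, 902, 933 and 947 CPM with vehicle, 1013, 1041, 1014 and 942 CPM at 10 µM, and 809, 759, 675 and 712 CPM at 50 µM. The 50 µM libraries were below all 8 others. The log2 fold change was -0.34 (SE 0.07, adjusted p = 0.00769) against vehicle and -0.44 (SE 0.06, adjusted p = 0.000297) against 10 µM, and leaving out any 1 library changed neither call.

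Of the IL-6 receptor chains, the ligand-binding one was lower at 50 µM. *Il6ra* had 96.5, 96.5, 92.3 and 79.6 CPM with vehicle, 80.2, 81.1, 99.6 and 96.2 CPM at 10 µM, and 58.5, 57.5, 54.2 and 51.3 CPM at 50 µM. The highest 50 µM library was thus below the lowest of the other 8. Its log2 fold change was -0.71 (SE 0.08, adjusted p = 0.000108) against vehicle, a fitted change of -39.0%, and -0.69 (SE 0.08, adjusted p = 4.28e-05) against 10 µM. *Il6st*, encoding gp130, had 123, 111, 117 and 88.1 CPM with vehicle, 114, 122, 116 and 118 CPM at 10 µM, and 109, 103, 85.7 and 102 CPM at 50 µM. The 50 µM libraries overlapped those with vehicle, where replicate 4 was low, and did not overlap those at 10 µM. The log2 fold change was -0.13 (95% interval -0.35 to 0.10, adjusted p = 0.461) against vehicle and -0.23 (SE 0.07, adjusted p = 0.0439) against 10 µM. The latter call was lost without 10 µM replicate 2, 3 or 4 or 50 µM replicate 2, 3 or 4, with a largest adjusted p of 0.124, while the log2 fold change stayed between -0.27 and -0.16 over all alternatives.

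The STAT genes went in opposite directions at 50 µM against 10 µM. *Stat3* had 279, 268, 258 and 231 CPM with vehicle, 235, 250, 267 and 270 CPM at 10 µM, and 223, 211, 178 and 204 CPM at 50 µM. All 50 µM libraries were below the rest. Its log2 fold change was -0.34 (SE 0.08, adjusted p = 0.0173) against vehicle and -0.32 (SE 0.07, adjusted p = 0.00722) against 10 µM. The call against vehicle was lost without vehicle replicate 1 (adjusted p = 0.0566), vehicle replicate 3 (0.0533) or 50 µM replicate 4 (0.0502), and the call against 10 µM in no such fit. *Stat5a* had 64.0, 63.8, 62.1 and 50.8 CPM with vehicle, 53.6, 53.7, 55.8 and 58.7 CPM at 10 µM, and 64.4, 64.4, 64.9 and 65.9 CPM at 50 µM. The 50 µM libraries were above all others, by little over 3 of the vehicle libraries. The log2 fold change was 0.12 (SE 0.08, adjusted p = 0.386) against vehicle and 0.23 (SE 0.06, adjusted p = 0.0232) against 10 µM, and the latter call was lost without 10 µM replicate 2 (0.0790) or 3 (0.0507) or 50 µM replicate 2 (0.0561) or 4 (0.0584).

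The feedback genes *Socs3* and *Cish* also went in opposite directions at 50 µM against 10 µM. *Socs3* had 163, 155, 165 and 171 CPM with vehicle, 170, 161, 173 and 165 CPM at 10 µM, and 103, 97.8, 103 and 114 CPM at 50 µM. No 50 µM library came near the other 8, of which the lowest had 155 CPM. The log2 fold change was -0.64 (SE 0.07, adjusted p = 0.000103) against vehicle, a fitted change of -35.7%, and -0.68 (SE 0.06, adjusted p = 4.46e-06) against 10 µM. *Cish* had 155, 167, 161 and 157 CPM with vehicle, 148, 149, 159 and 159 CPM at 10 µM, and 178, 181, 177 and 186 CPM at 50 µM. Its 50 µM libraries lay above all others. The log2 fold change was 0.18 (SE 0.06, adjusted p = 0.0738) against vehicle, which missed the threshold, and 0.23 (SE 0.06, adjusted p = 0.0128) against 10 µM. Against vehicle, *Cish* passed with DESeq2's Wald test (adjusted p = 0.0268), with all 12 libraries in the edgeR fit (0.0421) and with the length slope as a covariate (0.0110), and against 10 µM it was lost without 10 µM replicate 2 (0.0532). No left-out library changed a call of *Il6ra* or *Socs3*.

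Ratios of paired members within a library do not depend on the scaling of libraries, and 6 ratios were compared over the 3 pairs of groups. The tests were exact two-sided permutation tests of the log2 ratio, adjusted over all 18, where 4 against 4 libraries cannot give a p under 0.0286. *Csf2rb* to *Csf2ra* reads stood at 13.5 to 15.7 with vehicle, 13.6 to 14.9 at 10 µM and 15.9 to 19.5 at 50 µM, a log2 difference of 0.29 at 50 µM against vehicle. *Csf2rb2* to *Csf2rb* fell from 0.355 to 0.372 with vehicle to 0.308 to 0.325 at 50 µM (log2 difference -0.20), with 0.346 to 0.384 at 10 µM. The near copies therefore did not move by equal folds.

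Between the IL-6 receptor chains, *Il6st* to *Il6ra* was 1.11 to 1.27 with vehicle, 1.16 to 1.503 at 10 µM and 1.58 to 1.98 at 50 µM (log2 difference 0.59). *Stat5a* to *Stat3* was 0.220 to 0.240, 0.209 to 0.228 and 0.289 to 0.365 (log2 difference 0.46). The widest shift was that of *Socs3* to *Cish*, at 0.930 to 1.09, 1.03 to 1.15 and 0.539 to 0.617 (log2 difference -0.82 against vehicle and -0.91 against 10 µM). For these 5 ratios the 50 µM libraries overlapped neither other group, with an exact permutation p of 0.0286, the smallest possible, and an adjusted p of 0.04675 in each of the 10 comparisons. *Csf1r* to *Csf2ra* was 3.89 to 5.10 with vehicle, 4.47 to 5.00 at 10 µM and 3.19 to 4.05 at 50 µM. It overlapped between 50 µM and vehicle (exact permutation p = 0.0571, adjusted 0.0791) and separated 50 µM from 10 µM (exact permutation p = 0.0286, adjusted 0.04675). At 10 µM against vehicle none of the 6 ratios passed, and the smallest exact permutation p was 0.0571, for *Stat5a* to *Stat3*.

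**Figure D3:**
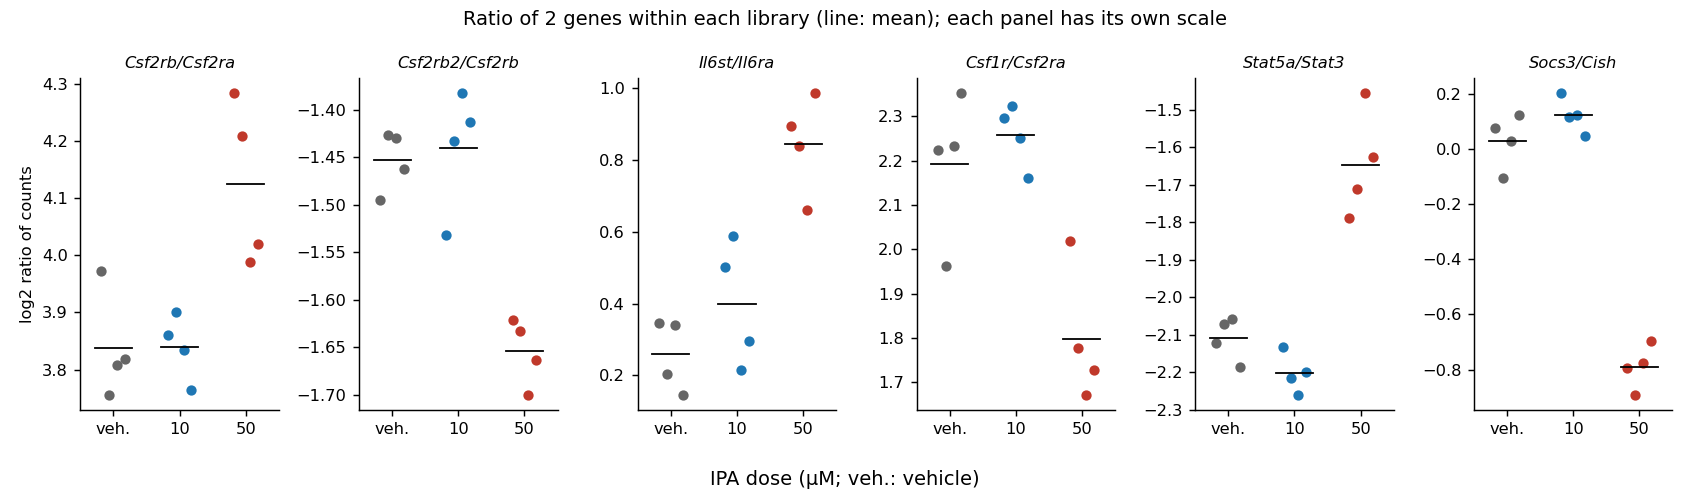
Log2 ratio of counts between 6 pairs of genes, on the vertical axis, by group, with 1 panel and its own scale for each pair; points are libraries and horizontal lines the mean of 4. For *Socs3* to *Cish*, the 50 µM libraries lie at ratios of 0.539 to 0.617, all below those of the other 8, at 0.930 to 1.15.

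The other genes of these pathways were read from 11 fixed lists, whose counts stand beside 13.5% of all genes called at 50 µM against vehicle (7% higher and 6.5% lower) and 15.4% against 10 µM. At 50 µM against vehicle, the list of cytokine ligands had 14 genes, of which 7 passed the filter, and 3 of these were called, all higher, with a median log2 fold change of 0.72 over the 7 and 0.01 over all genes. *Lif*, a cytokine of the gp130 family, had 2.94 to 4.21 CPM with vehicle and 10.1 to 15.4 CPM at 50 µM (log2 fold change 1.83, SE 0.16). *Csf1*, which encodes the ligand of CSF1R, had 82.1 to 110 CPM with vehicle and 178 to 196 CPM at 50 µM (1.04, SE 0.09), and thus was higher where *Csf1r* was lower. *Il27* rose by 1.01 on the log2 scale, at no more than 5.00 CPM. Against 10 µM, *Clcf1* was called as well (0.99, adjusted p = 0.0133 from edgeR), at 1.59 to 3.53 CPM at 10 µM and 3.66 to 7.09 CPM at 50 µM. *Il3* had no read in any library.

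Of 6 other receptor chains tested, 1 was called in each direction at 50 µM against vehicle. *Lifr*, the LIF receptor, rose from 7.87 to 9.36 CPM with vehicle to 12.6 to 22.6 CPM (log2 fold change 1.00, SE 0.15), and *Csf3r*, the G-CSF receptor of neutrophils, fell (-0.36, adjusted p = 0.0279 from edgeR). The 4 JAK kinases also had 1 in each direction. *Jak2*, the kinase that binds the common beta chain, had 374 to 453 CPM with vehicle and 499 to 548 CPM at 50 µM (0.30, adjusted p = 0.0154 from edgeR), and *Jak3* was lower (-0.34). Of 5 other STAT genes, *Stat4* (0.73) and *Stat2* (0.47) were higher. *Stat5b*, the near copy of *Stat5a*, did not pass (0.08, adjusted p = 0.483 from edgeR).

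Among 6 other SOCS genes, 1 was called at 50 µM. *Socs2*, a feedback gene that STAT5 is known to induce, had 67.6 to 78.0 CPM with vehicle and 115 to 135 CPM at 50 µM (log2 fold change 0.78, SE 0.08, adjusted p = 4.50e-05 from edgeR). Of 13 other negative regulators, *Usp18* was higher (0.87) and the phosphatase gene *Ptpn1* lower (-0.28), a share of 2 of 13 that was near the 13.5% of all genes. Of 11 adapters to PI3K and MAPK, *Pik3cd* was the only one called at 50 µM, with a log2 fold change of 0.25 against 10 µM (adjusted p = 0.0139 from edgeR) and 0.22 against vehicle, which missed the threshold (adjusted p = 0.0667).

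The lists of STAT target genes, written from general knowledge, did not move one way. Of 11 STAT5 targets, 3 were higher at 50 µM against vehicle (*Socs2*, the cyclin gene *Ccnd2* at 0.77, and the kinase gene *Pim1* at 0.25), 1 was lower (*Id1*, -0.48) and 7 did not pass, with a median of -0.03. Of 11 STAT3 targets tested, 2 were higher (*Hif1a* at 0.57, and *Pim1*, which is on both lists), 2 were lower (*Cebpd* at -0.53 and *Il4ra* at -0.23) and 7 did not pass, with a median of -0.19. At 50 µM against 10 µM, 3 STAT5 targets were higher and 3 lower, and 2 STAT3 targets were higher and 4 lower. The lower ones included *Mcl1* (-0.26), a survival gene on both lists, *Bcl2l1* (-0.22) of the STAT5 list and *Junb* (-0.18) of the STAT3 list. The neutrophil genes *S100a8* and *S100a9* are on the STAT3 list and on the neutrophil list too. Of 8 transcription factors known from macrophages grown in GM-CSF or M-CSF, 4 were higher, *Irf5* (0.56), *Bhlhe40* (0.54), *Irf4* (0.52) and *Irf8* (0.40), where 7% of all genes were. *Pparg*, which GM-CSF induces in alveolar macrophages, was lower (-0.68), and 3 did not pass. Among 5 genes of receptor shedding and trafficking, *Adam17*, the protease that sheds the IL-6 receptor, fell from 233 to 249 CPM with vehicle to 170 to 190 CPM at 50 µM (-0.40, adjusted p = 0.00148 from edgeR), *Snx27* was lower too (-0.32) and *Rhbdf2*, a partner of ADAM17, was higher (0.26).

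**Figure D4:**
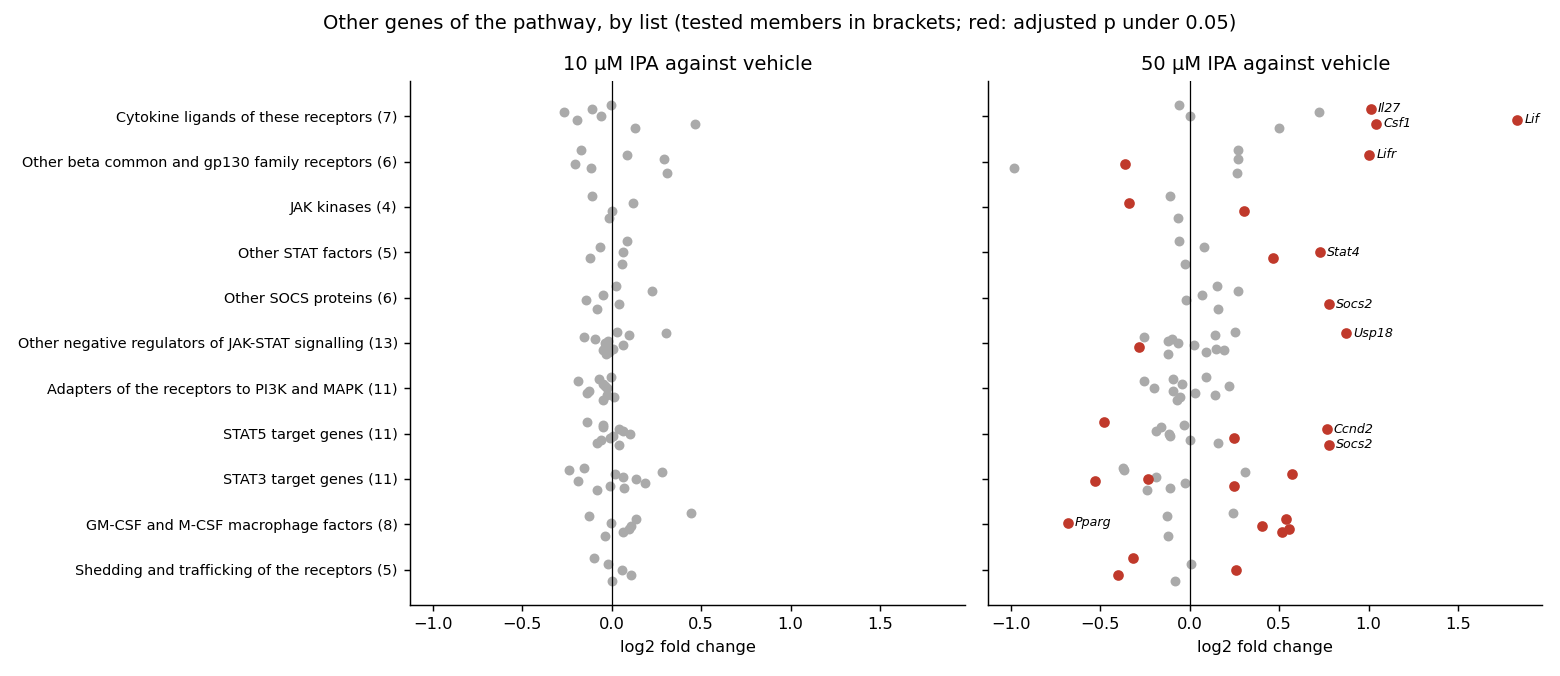
Log2 fold change at 10 µM (left) and 50 µM IPA (right) against vehicle, on the horizontal axes, for each tested gene of the 11 pathway lists, with 1 row a list; red points passed an adjusted p of 0.05 by edgeR. At 50 µM most lists hold called genes on both sides of 0, and the ligand list has its 3 called genes, *Lif*, *Csf1* and *Il27*, at 1.01 or above.

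Markers of the cell types that these cultures can hold moved as well, and their part in the members' values was not tested. The summed level of 12 neutrophil markers was 20825 to 29219 CPM with vehicle, 19353 to 22433 CPM at 10 µM and 14983 to 20546 CPM at 50 µM, and 7 of them were lower and 1 higher at 50 µM against vehicle. Of all genes 6.5% were lower and 7% higher, which stands beside each marker list's count at 50 µM, and 0.41% were called at 10 µM. For 6 monocyte markers the sums were 2978 to 3683, 4122 to 5274 and 2745 to 3495 CPM. Of these markers 3 were lower and 1 higher at 50 µM, and 1 was higher at 10 µM. *Fn1* alone held 1293 to 1600, 2049 to 2957 and 1331 to 1897 CPM of these sums. It was the marker called at 10 µM, and it was not called at 50 µM against vehicle. For 8 macrophage markers the sums were 899 to 1062, 1173 to 1339 and 1058 to 1114 CPM. Of these markers 1 was higher and 2 lower at 50 µM, and 2 were higher at 10 µM, where no member passed the test. The 7 dendritic cell markers summed to 3635 to 4322, 3841 to 4533 and 3346 to 3932 CPM, with 3 higher and 1 lower at 50 µM.

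The 5 B cell markers were all higher at 50 µM against vehicle, at 36.5 to 56.6 CPM in sum against 18.3 to 25.4 CPM. Mast cell and basophil markers summed to 238 to 285 CPM with vehicle and 260 to 293 CPM at 50 µM, with 1 of 6 called in each direction, and eosinophil markers to 1008 to 1251 and 796 to 1072 CPM, with 1 of 5 higher. Markers of T and NK cells reached at most 3.20 CPM in sum and erythroid markers at most 1.30 CPM in any library. Those of stroma and endothelium reached at most 68.3 CPM, of which *Pecam1*, a gene that myeloid cells also express, had up to 65.5 CPM, while *Col1a1* had at most 3.75 CPM and *Cdh5* at most 1.02 CPM. No marker of the 10 lists was at 0 in all 12 libraries.

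For each member called in at least 1 comparison, the genes most like it were sought over the 8924 tested genes whose mean reached 10 CPM, by the root mean square (RMS) difference in centred log2 CPM over the 12 libraries, as a description. *Socs3* was followed most closely by *Naaa* (RMS 0.0610), *Zfp36l2* (0.0848) and *Tnfsf14* (0.0854), where its own profile had a size of 0.319. For *Il6ra* (own size 0.349) the nearest were *Il17ra* (0.0924), another cytokine receptor, *Arhgap24* (0.106) and *Spata13* (0.109). *Csf2rb* (own size 0.182) was nearest to *Foxp4* (0.0625), *Axl* (0.0659) and *Ahr* (0.0750). *Csf1r* (own size 0.202) was nearest to *Tbc1d20* (0.0458), *Cnr2* (0.0535) and *Gar1* (0.0541), and *Stat3* (own size 0.189) to *Ppp1r10* (0.0468), *Flna* (0.0498) and *Slc36a1* (0.0538). The nearest genes of *Il6st* were *Plxna1*, *Glg1* and *Dennd4c* (0.0536 to 0.0672), those of *Stat5a* were *Tab2*, *Kmt5a* and *Nfya* (0.0434 to 0.0507), and those of *Cish* included *Plcl2* (0.0507) and *Pomgnt1* (0.0511), whose own sizes were 0.163, 0.127 and 0.106.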

How the data were processed

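A stranded mRNA kit was used for the 12 libraries, and an AVITI sequencer read them. After trimming by Atropos, the authors mapped reads on mm10 using HISAT2 2.2.1 and assigned them to Ensembl genes using featureCounts 2.0.1. The deposited values are these counts as they were, neither normalized nor filtered. The strand setting of the counting is not given in the sources used here. Since the titles of 10 µM replicates 2 and 3 give the same replicate number, their library names gave the numbers. Totals were 20451312 to 28038612 reads, of which a member had between 1110 and 111788 in a library.

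Genes over 0.5 CPM in at least 2 of the 12 libraries were tested with edgeR 4.0.16 in R 4.3.3 (TMM, glmQLFit and glmQLFTest) on the 8 libraries of each comparison. Values of p were adjusted by the Benjamini-Hochberg method over all 14894 genes and called under 0.05. Exon lengths are unions of GENCODE exons on GRCm38, for 99.9% of the genes tested. Permutation tests were exact and two-sided.

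Members and lists were chosen with earlier results of these data known. Values are given for the 10 members, for genes of the 11 pathway lists called in at least 1 comparison (the rule allowed 4 per list and comparison, and *Bcl2l1* and *Junb* go beyond it), and for the 3 genes most like each called member, of which 2 are given for *Cish*. *Il3*, *Stat5b*, *Hmgxb3*, *S100a8*, *S100a9*, *Fn1*, *Pecam1*, *Col1a1* and *Cdh5* are named outside this rule. Alternatives were DESeq2 1.42.0, limma-voom (limma 3.58.1), DESeq2's size factors, other filters, all 12 libraries in the fit, a replicate block and leaving out each library. The length slope as a covariate, and leaving out the library of lowest slope in each group, were added after the data were seen. Results that need certain items are not reported here.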

Additional observations from a re-analysis of the deposited data

Results flagged for a closer look

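Of 48 groups of 4 libraries examined for a library far from the others, 1 stood out, where chance gives about 1 in 20. *Stat5a* had 50.8 CPM in vehicle replicate 4 and 62.1 to 64.0 CPM in the other 3 vehicle libraries, a gap of 0.855 of the group's range, over Dixon's 95% critical value for 4 samples. Vehicle replicate 4 was also the library with the lowest length slope.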

How the results depend on the processing

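Over all alternatives, 474 log2 fold changes of members kept their direction and side of the threshold, 21 lost a call, 4 gained one and 11 changed sign. The log2 ratios moved by less than the spread between libraries in all 180 alternatives, and 3 of them, all at 10 µM against vehicle and none called, changed sign with 1 library left out: *Csf2rb* to *Csf2ra* (lowest -0.03), *Csf2rb2* to *Csf2rb* (-0.01) and *Csf1r* to *Csf2ra* (-0.01). With 3 against 4 libraries the exact permutation test cannot give a p under 0.0571, so it says nothing of the ratios' calls there. The sign changes of members were all at 10 µM against vehicle, where no member was called: with 1 library left out, *Stat3* ranged from -0.0709 to 0.0189, *Il6ra* from -0.0909 to 0.0174, *Csf2ra* from -0.0236 to 0.0833, *Csf2rb* from -0.0286 to 0.0799 and *Csf2rb2* from -0.0160 to 0.0795. Those of *Csf2ra*, *Csf2rb* and *Csf2rb2* changed sign without vehicle replicate 4, that of *Stat3* without vehicle replicate 1 or 10 µM replicate 1, and that of *Il6ra* without 10 µM replicate 1 or 2. With the length slope as a covariate *Il6ra* was at 0.00657 and *Stat3* at 0.00922, and without the libraries of lowest slope *Csf2ra* was at -0.0123 and *Csf2rb* at -0.0245.

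The count of all genes called at 10 µM, 61, was the least stable. It was 250 with DESeq2 (197 higher and 53 lower), 150 with no filter, 118 with all 12 libraries, 523 with the length slope, 147 without the libraries of lowest slope, and 4 (without 10 µM replicate 2) to 122 (without vehicle replicate 4) with 1 library left out. At 50 µM it ranged from 1248 (without vehicle replicate 3) to 2689 (without vehicle replicate 4) against vehicle and from 1604 to 2269 against 10 µM with 1 library left out, and the length slope gave 3576 and 3567. With 1 library left out, members called ranged from 3 (without vehicle replicate 3) to 5 against vehicle and from 5 (without 10 µM replicate 2) to 8 against 10 µM. The other alternatives called 5 to 7 and 6 to 8, with 7 against vehicle under the length slope. The causes of these shifts were not tested.

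For the sequenced cultures the sources do not say whether a replicate number marks a shared marrow, although the study analysed other readouts of such cultures as repeated measures. The numbers were not taken to pair the libraries, since the correlation of their deviations was -0.46 to 0.254 over 12 pairs and above 0.1 in 2. With a replicate block, 3 genes were called at 10 µM and 1830 and 2200 at 50 µM, with 0, 5 and 8 members. *Il6st* and *Stat5a* against 10 µM also missed the threshold with all 12 libraries (adjusted p = 0.115 and 0.0570 from edgeR), *Il6st* without the libraries of lowest slope (0.0677) and *Stat5a* with no filter (0.0508).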
